A study of Mus musculus with 7 samples.

Results

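The olfactory receptor genes of mouse chromosomes 16 and 19 are described here. They were chosen as the gene rows of the count table whose symbol is Olfr followed by a number only and whose location is on either chromosome. This gave 102 of the table's 50600 genes, with 39 on chromosome 16 and 63 on chromosome 19. The same table held 1008 receptor genes with such symbols on other chromosomes. The symbols Olfr190 and Olfr197 each stand on 2 gene rows, so the 102 rows carry 100 distinct symbols.

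Whole olfactory epithelium, the nasal tissue that houses the odour-sensing neurons, was taken at postnatal day 7 and sequenced as poly(A) RNA in 7 libraries. The wild-type group (WT, Amigo1+/+) had 1 library. The knockout group (KO, Amigo1-/-) and the group with a neomycin cassette in place of the Amigo1 coding region (neo, Amigo1neo/neo) had 3 libraries each. Amigo1 encodes a neuronal leucine-rich repeat adhesion protein. The labels do not say how the Amigo1-/- allele was made, whether each library came from its own animal, or from which sex, and p-values here measure only the spread between these samples.

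Odorant receptors are G protein-coupled receptors of the sensory neurons of the nose. Each mature olfactory sensory neuron settles on a single receptor gene, and usually a single allele of it, from the whole repertoire, so in bulk tissue a receptor's RNA reflects both how many neurons chose it and how much RNA each of them holds. Those 2 quantities cannot be told apart here. Receptor genes lie in clusters along the chromosomes, and enhancers such as the Greek islands, together with the factors Lhx2, Ebf and Ldb1, take part in their choice. All receptors described here belong to the class II family.

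Total gene counts were 14879415 to 21343058 per library. Amigo1 had 744 counts in WT, 0 to 16 in KO and 1 to 11 in neo. The WT library had 643 CPM of Xist and neo replicate 1 had 1144, while the other libraries had at most 4.18, and Ddx3y at 60.7 to 84.5 CPM in those and under 0.1 CPM in WT and neo replicate 1, so these 2 libraries read as female and the others as male. Markers of mature olfactory sensory neurons (Omp, Gnal, Adcy3 and others, 14 genes) summed to 3857 to 4307 CPM (counts scaled to a common library size) in KO and 4485 to 5000 in neo, with no overlap. None of the 14 was at 0. All 14 had positive fold changes in neo against KO, 3 of them at an unadjusted p under 0.05 and none after adjustment (edgeR). The 5 bone markers summed to 4352 to 6970 CPM in KO and 1542 to 3287 in neo, and all 5 were lower at an unadjusted p under 0.05. Of the 4 macrophage markers, 3 were higher in neo at that p, with summed levels of 64.5 to 71.5 CPM in KO and 67.1 to 92.7 in neo. Of the 8 markers of immature olfactory sensory neurons, 7 had negative fold changes, with Gap43 lower at that p, and their sums overlapped (2124 to 2306 CPM in KO, 1769 to 2329 in neo). None of these passed adjustment. The 3 skeletal muscle markers summed to 428 CPM in the highest library, neo replicate 1, against 1.79 in the lowest. The part of these marker shifts in the receptor values below was not tested.

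The receptors fell into 9 subclusters when the chromosomes were split at gaps of over 100 kb between neighbouring receptor genes or pseudogenes (GRCm38 coordinates). Chromosome 16 held 3 receptors that stood alone, Olfr161 (subcluster 1, chr16:3591042-3599323), Olfr15 (subcluster 2, chr16:3830878-3844747) and Olfr19 (subcluster 3, chr16:16672228-16676405). It also held the 8 genes from Olfr164 to Olfr171 (subcluster 4, chr16:19284104-19629916) and the 28 genes from Olfr172 to Olfr209 (subcluster 5, chr16:58759544-59363993). Chromosome 19 held 4 genes from Olfr1417 to Olfr1420 (subcluster 6, chr19:11826803-11898079), 16 from Olfr1423 to Olfr1441 (subcluster 7, chr19:12031787-12423569), the pair Olfr1442 and Olfr1443 (subcluster 8, chr19:12670439-12683851) and 41 from Olfr1444 to Olfr1505 (subcluster 9, chr19:12857283-13921866). The chromosome 19 genes thus spanned 2095 kb, whereas those on chromosome 16 were spread over 55773 kb.

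Encoded proteins were more alike within a subcluster than between subclusters. Over pairs of receptors with a coding model, the median protein identity was 54.1% within a subcluster (1300 pairs) and 41.2% between subclusters (3650 pairs). All 27 pairs at 90% identity or more lay within a subcluster, and they involved 41 of the receptors. The 3 pairs with the highest protein identity are shown by a 60-base stretch of their coding sequence. Within it, only the bases that differ tell reads of the 2 genes apart. The part of the counts that came from coding bases was not measured. Capitals mark the bases that differ, and each stretch is the one with the most differences in its pair.
Olfr1472 (chr19:13454084-13454143, minus strand): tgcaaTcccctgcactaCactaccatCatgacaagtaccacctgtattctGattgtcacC
Olfr1475 (chr19:13479765-13479824, minus strand): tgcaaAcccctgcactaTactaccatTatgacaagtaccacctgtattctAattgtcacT
Olfr1471 (chr19:13445442-13445501, plus strand): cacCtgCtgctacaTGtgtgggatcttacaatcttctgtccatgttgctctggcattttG
Olfr1474 (chr19:13471400-13471459, plus strand): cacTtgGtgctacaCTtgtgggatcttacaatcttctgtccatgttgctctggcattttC
Olfr166 (chr16:19486859-19486918, plus strand): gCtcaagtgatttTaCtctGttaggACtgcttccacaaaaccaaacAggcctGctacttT
Olfr168 (chr16:19530840-19530899, minus strand): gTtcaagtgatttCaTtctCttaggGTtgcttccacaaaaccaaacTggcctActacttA
Olfr1472 and Olfr1475 differed at 29 of 942 coding bases and shared an identical run of 147 bases, and their proteins were 97.5% identical. Olfr1471 and Olfr1474 differed at 27 of 942 bases, and Olfr166 and Olfr168 at 39 of 936. By coding bases, compared only for the 25 pairs with the highest protein identity, the order was another. Olfr1502 and Olfr1505 were closest at 97.5% (24 differences of 948). Olfr1471 and Olfr1474 as well as Olfr170 and Olfr171 were at 97.1%, and Olfr166 and Olfr168 at 95.8%. Even the stretches with the most differences held only 5, 5 and 9 of them.

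Levels within near-identical pairs ranged from alike to far apart. Olfr1472 had 59 counts over the 7 libraries and Olfr1475 had 8. Their mean levels were 0.563 and 0.0857 TPM (a transcript level corrected for length and library size), a ratio of 6.57. The widest ratios among the 25 pairs with the highest protein identity were 20.7, 17.1 and 10.4. The lower genes of those pairs, Olfr1475, Olfr1436 and Olfr1445, all have only single-exon gene models. The part of the gene models in these ratios was not tested. Olfr1471 and Olfr1474 had 292 and 119 counts, with mean TPM of 1.78 and 1.07. Olfr166 was at 9.86 TPM and Olfr168 at 4.06. Of 25 listed pairs, 14 differed in TPM by a factor of 2 or more and 11 by less. Olfr1446 and Olfr1447 were among the latter, with a ratio of 1.03, as were Olfr199 and Olfr201, with a ratio of 1.05. Identical runs in these pairs were 62 to 389 bases long. Between 14.5% and 19.6% of reads per library were in the row for multimapping reads and were given to no gene, so the counts of these pairs are uncertain. Olfr180 and Olfr181 overlap by 4049 bases on the same strand, and their counts are uncertain too.

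Receptor RNA was detected from nearly every gene, at low level. At least 1 count was found in every library for 97 of the 102 genes, and 2 rows (Olfr192 and the second row of Olfr197) had 0 counts in all libraries. Olfr192 lies wholly within the second row of Olfr190 (925 shared bases) and the second row of Olfr197 within the first (926 shared bases), so these zeros do not measure expression. The median receptor had 296 counts over the 7 libraries. The median of the mean TPM was 1.67, with a range from the 10th to the 90th percentile of 0.511 to 3.93, beside 1.504 and 0.475 to 3.70 for the 1008 receptors elsewhere. Median TPM was 2.08 on chromosome 16 and 1.42 on chromosome 19. In CPM, which is not corrected for length, the medians were alike, at 2.27 and 2.25.

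**Figure D1:**
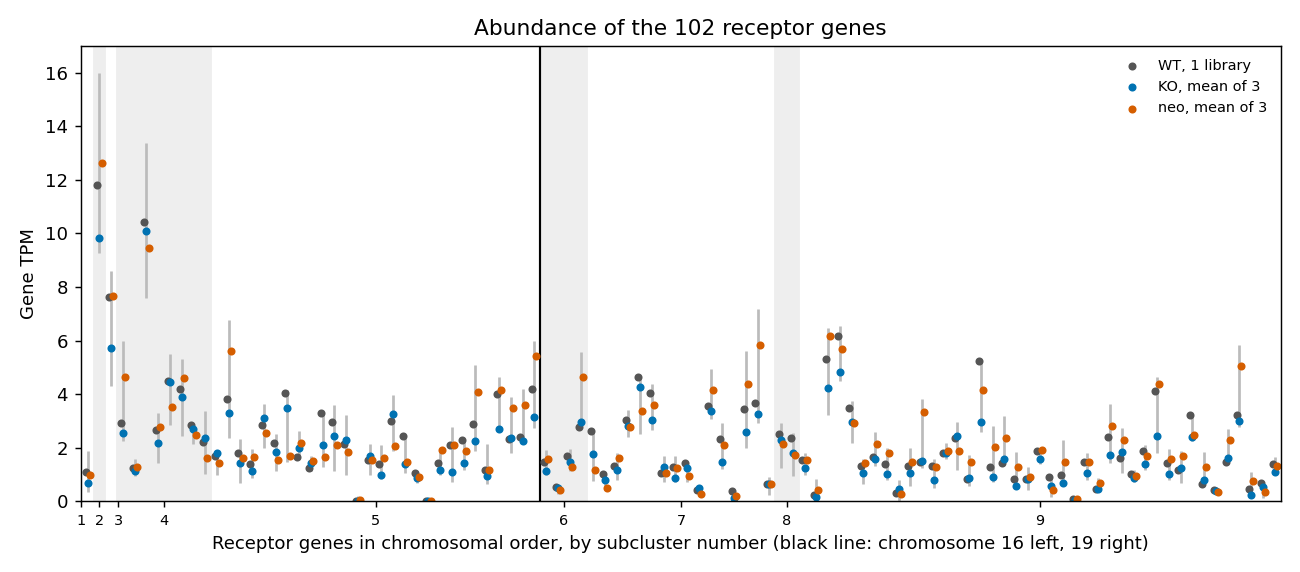
Gene TPM (vertical axis, linear) of the 102 receptor genes in chromosomal order, with subcluster numbers below; points are the WT library and the means of 3 KO and 3 neo libraries, and grey lines span all 7 libraries. Olfr15 and Olfr166 stand above the others, at mean TPM of 11.3 and 9.86, and most genes lie under 4.

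Olfr15 was the most abundant of the receptors. It is known as a broadly tuned receptor that answers to many unlike odorants. Its TPM was 11.8 in WT, 9.27, 10.8 and 9.40 in KO and 15.98, 11.6 and 10.3 in neo, where KO replicate 2 lay above neo replicate 3. Olfr15 ranked 4 among all receptor genes by mean TPM. In CPM, its coefficient of variation (CV) across libraries was 9.29%. This was the lowest CV of CPM among the 45 receptors with a mean of at least 50 counts (median CV 21.6%). Its CPM ran from 24.9 to 32.4, whereas its TPM ran more widely, from 9.27 to 15.98. Olfr166 followed, with 10.4 TPM in WT, 8.15, 13.4 and 8.77 in KO and 11.4, 7.59 and 9.30 in neo. The KO and neo libraries of Olfr166 overlapped. Olfr15 and Olfr166 together held 16.3% of all receptor counts on the 2 chromosomes, and the top 5 genes held 25.7%.

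The third isolated gene, Olfr19, had a mean TPM of 6.84, whereas Olfr161, less than 250 kb from Olfr15, was at 0.887. Neighbourhood and level were only loosely related. Across 91 neighbouring pairs, which share libraries and depth, Spearman's rho of mean TPM was 0.14. In subcluster 4, Olfr166 was followed by Olfr169 at 4.24 TPM. In subcluster 5 the highest were Olfr173 at 4.38 and Olfr209 at 4.26. On chromosome 19 no gene was above 5.40 TPM. Its leading genes were Olfr1447 at 5.40 and Olfr1446 at 5.22 in subcluster 9, and Olfr1440 at 4.43 and Olfr1427 at 3.93 in subcluster 7. Olfr1420 and Olfr1419 led subcluster 6 at 3.65 and 1.42 TPM. Olfr1442 and Olfr1443 of subcluster 8 were at 2.26 and 1.86. Olfr1440 is known as a receptor for the musk odorant muscone.

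By counts, subcluster 9 held 30.1% of the receptor counts of the 2 chromosomes, subcluster 5 18.2%, subcluster 4 16.8% and subcluster 7 16.4%. Olfr15 alone made up 8.62%. Gene models went with the counted level. The 6 receptors with only single-exon models in GENCODE vM21 (Olfr262, Olfr1436, Olfr1445, Olfr1453, Olfr1475 and Olfr1502) had 8 to 39 counts in all, with a median of 33. The 94 receptors with a multi-exon model had a median of 328.5. A model that covers the coding exon alone leaves reads of other exons uncounted, and the part of this in the low counts was not tested.

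RefSeq gave promoter windows (GRCm38.p6) for 87 of the receptors, but only 10 of these lay within 100 bases of the start of a multi-exon GENCODE model. Over the 250 bases before those starts, the homeodomain motif TAATNA, searched on both strands, was found in 6 of 10 windows (60%). It was found in 24.4% of 32807 windows of all genes and in 64.0% of 944 receptor windows. The Olf/Ebf motif CCCNNGGG was in 1 of 10 (10%), beside 11.8% of all windows and 2.75% of receptor windows. The TATA box motif TATAAA was in 0 of 10, beside 12.4% of all windows and 39.4% of receptor windows. The windows of all genes and of receptors were not restricted to starts of multi-exon models, so these shares compare unlike sets. Olfr1477 of subcluster 9 is shown as an example, with its TAATNA matches in capitals. The 150 bases shown lie outside every annotated exon of the same strand. The same was true of Olfr1434, whose 150 bases held no match.
Olfr1477 promoter (chr19:13500396-13500545, plus strand): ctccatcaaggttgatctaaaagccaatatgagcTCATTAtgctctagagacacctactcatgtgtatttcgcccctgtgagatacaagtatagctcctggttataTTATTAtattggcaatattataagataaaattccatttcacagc
Both matches are TAATNA on the other strand. Olfr1477 was at 3.31 CPM in WT, at 2.82, 2.95 and 2.15 in KO and at 3.57, 3.71 and 2.46 in neo, with overlap between the groups.

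The study's main comparison sets neo against KO. Summed over all 102 receptors, levels were 321, 325 and 305 CPM in KO and 383, 346 and 356 CPM in neo, so every neo library lay above every KO library. WT was at 351 CPM, among the neo libraries. The same order held for chromosome 19 (176, 161 and 158 against 212, 188 and 189 CPM). On chromosome 16 the groups overlapped, with 144, 164 and 147 CPM in KO and 172, 158 and 166 CPM in neo. As a share of all receptor counts the 102 genes were at 8.33, 9.02 and 9.04% in KO and 8.85, 9.10 and 9.13% in neo, which overlapped (8.80 ± 0.406 and 9.03 ± 0.157, SD, n = 3). Relative to mature neuron markers the groups overlapped as well, at 74.5, 82.9 and 79.1 receptor counts per 1000 marker counts in KO and 84.1, 69.2 and 79.3 in neo.

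Of the 102 receptors, 89 passed the count filter, and the 13 that did not had at most 67 counts each. None of the 89 passed an adjusted p of 0.05 (edgeR's quasi-likelihood test with Benjamini-Hochberg adjustment), where 0.017% of all 17638 genes did. DESeq2 called 1 receptor, Olfr183, where it called 0.573% of all genes, and limma on log2 TPM called none. At an unadjusted p under 0.05, 19 receptors were higher in neo (background 4.59% of all genes) and 2 were lower (background 4.72%), which is 21.3% and 2.25% of those tested. Elsewhere, 110 of 884 receptors were higher (12.4%) and 42 lower (4.75%). In 24 receptors all 3 neo libraries lay above all 3 KO libraries (background 7.58%), and in 5 all lay below (background 7.98%). Without neo replicate 1, which leaves male libraries with few skeletal muscle counts, 15 receptors were higher and 3 lower, and 34 of 35 tested genes of subcluster 9 were positive. The median log2 fold change was 0.23 over the receptors, 0.25 over receptors elsewhere and -0.002 over all genes. The receptors of chromosomes 16 and 19 thus had a median close to that of other receptors.

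**Figure D2:**
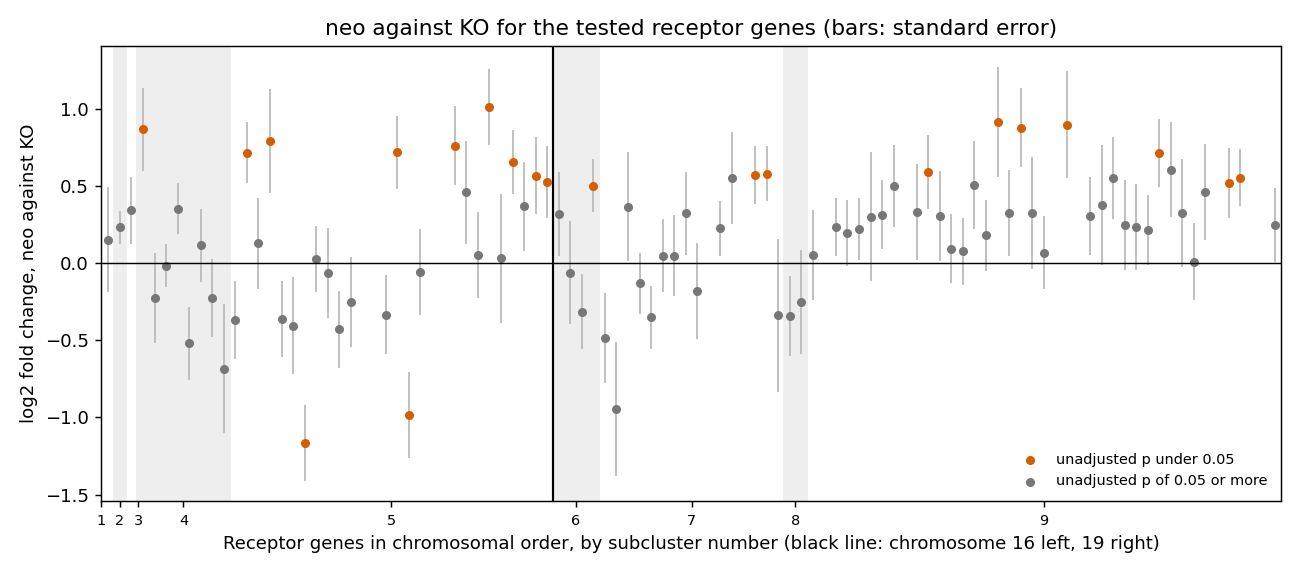
log2 fold change of neo against KO (vertical axis) with its standard error for the 89 tested receptors in chromosomal order, with subcluster numbers below; orange points have an unadjusted p under 0.05. In subcluster 9 all 34 points lie above 0, and in subcluster 5 they run from -1.17 to 1.01.

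The fold changes differed in pattern between subclusters. In subcluster 9, the largest, all 34 tested receptors had a positive log2 fold change, from 0.01 to 0.92 with a median of 0.32, and 7 had an unadjusted p under 0.05. Its other 7 members were not tested and had at most 67 counts each. In the authors' deposited table, Olfr1453, Olfr1504, Olfr1472 and Olfr1499 were higher in KO, by 1.07, 0.83, 0.24 and 0.02 on the log2 scale. Olfr1445, Olfr1502 and Olfr1475 were higher in neo there, at -0.79, -0.68 and -0.23 for KO over neo. All of these had an unadjusted DESeq2 p of 0.311 or more. Summed over the subcluster, levels were 103, 86.0 and 84.9 CPM in KO and 120, 112 and 111 CPM in neo, with no overlap and a ratio of means of 1.25. WT was at 104 CPM, between KO and neo. As a share of all receptor counts, subcluster 9 was at 2.67, 2.39 and 2.52% in KO and 2.77, 2.95 and 2.84% in neo. These shares did not overlap either, though KO replicate 1 lay near neo replicate 1, and the WT share of 2.69% lay between the groups. Per 1000 mature marker counts the groups overlapped, at 23.9, 21.9 and 22.0 in KO and 26.3, 22.4 and 24.7 in neo.

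**Figure D3:**
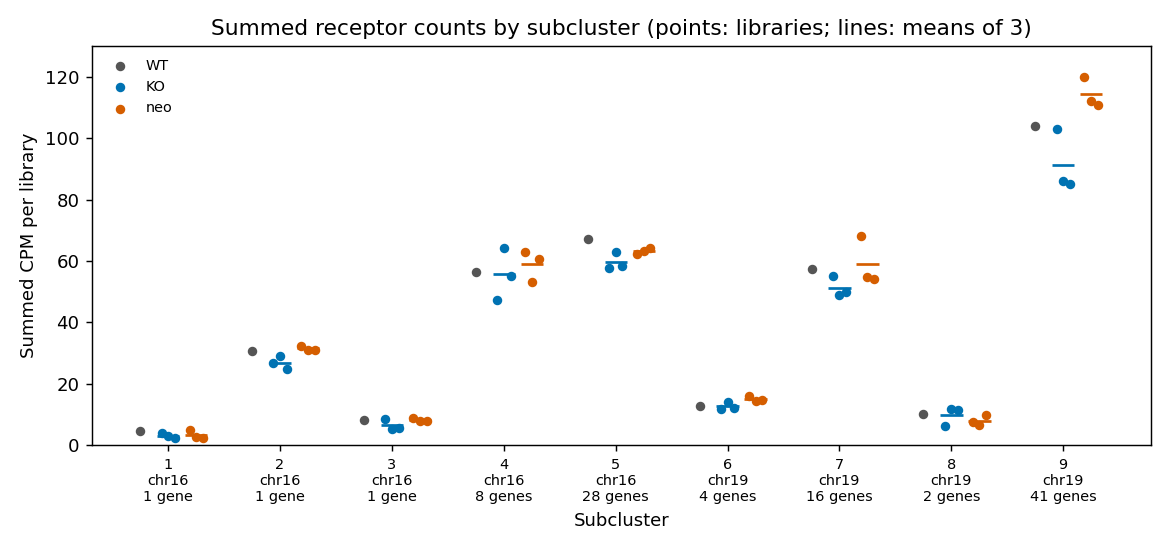
Summed CPM per library (vertical axis, linear from 0) in each of the 9 subclusters; points are libraries and lines are the means of 3 KO and of 3 neo libraries. In subcluster 9 the neo libraries lie between 111 and 120 CPM and the KO libraries between 84.9 and 103. In subclusters 2 and 6 all neo libraries also lie above all KO libraries, and in subclusters 1, 3, 4, 5, 7 and 8 the groups overlap.

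Positive fold changes prevailed in most receptor clusters of the genome. Of the receptors elsewhere, 652 of 884 were positive (73.8%), and of all genes 8754 of 17638 (49.6%). Among 15 receptor clusters with at least 20 tested genes, the positive share was highest in subcluster 9, and subcluster 5 stood next to last with 14 of 24 (58.3%). The next highest were clusters on chromosome 7 (33 of 35, 94.3%, and 20 of 22, 90.9%) and chromosome 9 (28 of 31, 90.3%). Clusters on chromosomes 7 (0.37), 9 (0.35 and 0.37) and 14 (0.36) had higher median log2 fold changes than subcluster 9 (0.32). No test was made of the difference between clusters, and the genes of a cluster share libraries and are not replicates. Over the 15 alternative settings for this comparison, 88.9 to 100% of the tested genes of subcluster 9 had a positive fold change. All of them did so in 5 settings.

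**Figure D4:**
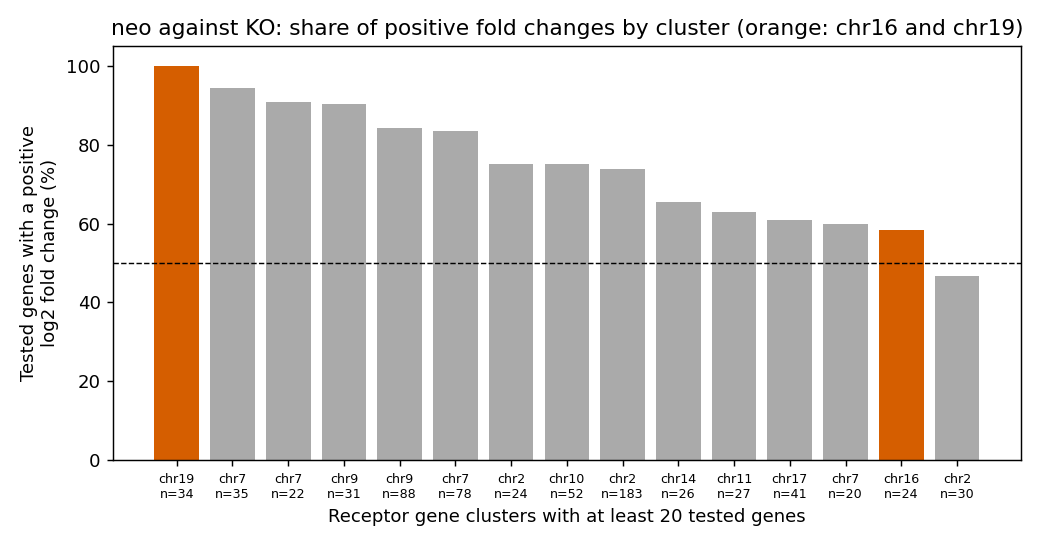
Percent of tested receptor genes with a positive log2 fold change in neo against KO (vertical axis, from 0), for the 15 receptor clusters with at least 20 tested genes, with the number tested under each bar; the dashed line is at 50%. Subcluster 9 of chromosome 19 (34 of 34) and subcluster 5 of chromosome 16 (14 of 24) are in orange.

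Receptors of subcluster 9 with the smallest p-values were higher in neo by a factor of under 2. Olfr1467 (chr19:13362236-13368054) was at 1.56 CPM in WT, 1.59, 1.29 and 1.55 in KO and 2.98, 2.21 and 2.92 in neo. Its KO libraries lay around WT and its neo libraries all lay above, with a log2 fold change of 0.88 ± 0.25 (SE; edgeR unadjusted p = 0.00716, adjusted p = 0.470). Olfr1491 (chr19:13697268-13706127) was at 4.92 CPM in WT, 3.37, 3.27 and 2.26 in KO and 4.64, 5.02 and 4.92 in neo. Here WT lay within the neo libraries and above all KO libraries. The log2 fold change of neo against KO was 0.71 ± 0.22 (SE; edgeR adjusted p = 0.471). Olfr1446 and Olfr1447, the most abundant genes of the subcluster, had log2 fold changes of 0.23 and 0.20, at unadjusted edgeR p of 0.243 and 0.390. Olfr1474 was at 0.90 (edgeR unadjusted p = 0.0297, adjusted p = 0.505) and its near-identical partner Olfr1471 at 0.07.

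Subcluster 5 on chromosome 16 held fold changes of both signs. At an unadjusted p under 0.05, 8 of its 24 tested genes were higher in neo and 2 were lower. Olfr183 (chr16:58995357-59001441) had the smallest p of all the receptors. It was at 5.38 CPM in WT, 4.47, 5.79 and 4.86 in KO and 1.70, 2.75 and 2.33 in neo. All neo libraries lay below every other library, KO and WT lay together, and its CV of 41.4% was the highest among receptors with a mean of at least 50 counts. The log2 fold change was -1.17 ± 0.25 (SE; edgeR unadjusted p = 0.00106, adjusted p = 0.340), and the adjusted p ran from 0.0339, with DESeq2, to 0.902 over the alternatives. In the authors' deposited table, Olfr183 was higher in KO than in neo by 1.17 on the log2 scale, with an adjusted p of 0.0609. Olfr195 (chr16:59147046-59150777) was at 4.09 CPM in WT, 3.31, 5.41 and 4.64 in KO and 2.47, 1.61 and 2.66 in neo, again with no overlap between KO and neo. Its log2 fold change was -0.98 ± 0.28 (SE; edgeR adjusted p = 0.465).

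Other genes of subcluster 5 were higher in neo. Olfr202 (chr16:59283516-59286793) was at 2.44 CPM in WT, 2.02, 1.34 and 1.77 in KO and 3.75, 3.11 and 3.46 in neo. WT lay between the groups, which did not overlap, and the log2 fold change of 1.01 ± 0.25 (SE; edgeR unadjusted p = 0.00272, adjusted p = 0.387) was the highest of all the receptors. Olfr173 (chr16:58795207-58800268) was at 5.79 CPM in WT, 5.08, 5.57 and 3.81 in KO and 7.11, 8.25 and 8.44 in neo, with a log2 fold change of 0.72 ± 0.20 (SE; edgeR adjusted p = 0.459). Signs followed position to some degree, an observation made after the values were seen. All 9 tested genes from Olfr198 to Olfr209 were positive, with a median log2 of 0.53, and 5 of the 15 from Olfr172 to Olfr196 were, with a median of -0.25. The summed level of the subcluster overlapped between groups, at 57.8, 62.9 and 58.5 CPM in KO and 62.2, 63.3 and 64.1 in neo. Over all 80 neighbouring tested pairs, Spearman's rho of the fold changes was 0.17.

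**Figure D5:**
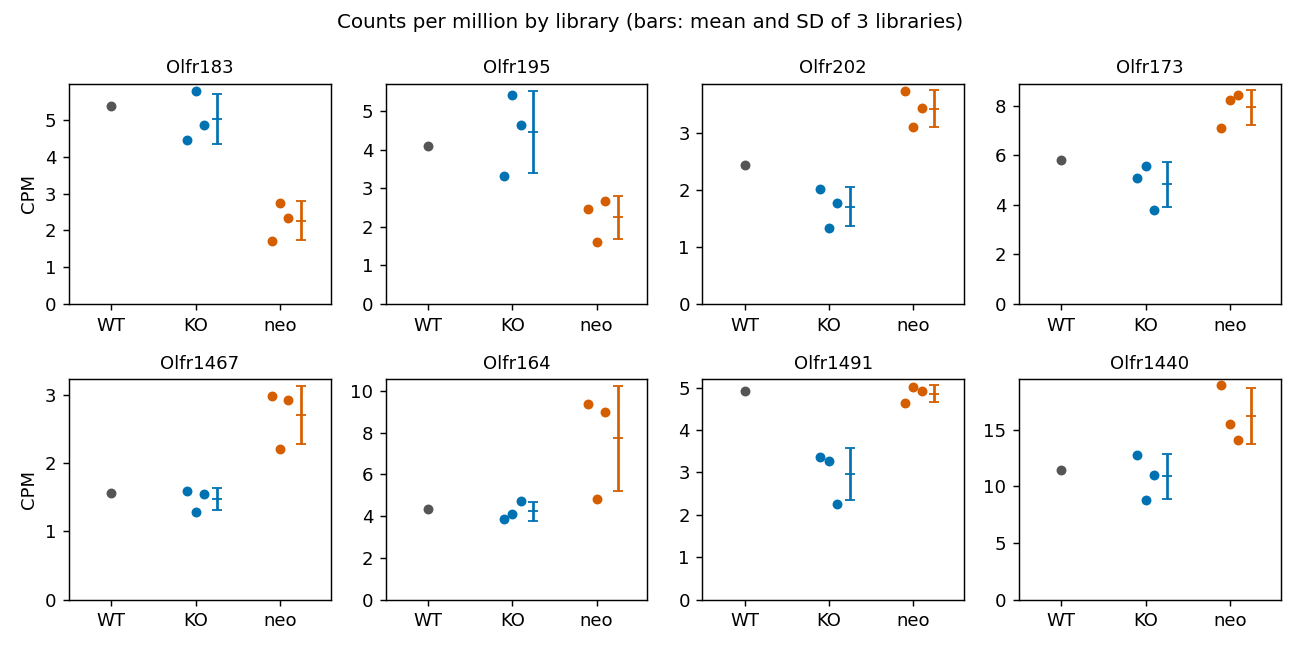
CPM per library (vertical axes, linear from 0) of 8 receptors in WT (1 library), KO and neo (3 libraries each), with mean and SD beside the points. The 8 were picked with their values known, and all had an unadjusted edgeR p under 0.05 in neo against KO. That the KO and neo points do not overlap in any panel is thus no separate result. Neo is below KO for Olfr183 and Olfr195 and above it for the other 6.

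Subcluster 4 was led by receptors that did not differ beyond the spread of the libraries. Olfr166 had a log2 fold change of -0.02 ± 0.14 (SE) and Olfr169 of 0.12 ± 0.24 (SE). Its first gene, Olfr164 (chr16:19284104-19314064), was at 4.32 CPM in WT, 3.86, 4.13 and 4.75 in KO and 9.36, 4.84 and 8.97 in neo. Neo replicate 2 lay barely above KO replicate 3, whereas the other neo libraries were far above. The log2 fold change was 0.87 ± 0.27 (SE; edgeR adjusted p = 0.471). Olfr168 was at 5.29 CPM in WT, 4.16, 6.97 and 5.74 in KO and 4.04, 3.47 and 4.25 in neo, at a log2 fold change of -0.52 and an unadjusted edgeR p of 0.0540. KO replicate 1 of Olfr168 lay among the neo libraries.

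In subclusters 6 and 7 the muscone receptor Olfr1440 (chr19:12387279-12401584) had the highest count. It was at 11.4 CPM in WT, 12.7, 8.84 and 11.05 in KO and 18.9, 15.5 and 14.1 in neo. All neo libraries lay above all others, and the log2 fold change was 0.58 ± 0.18 (SE; edgeR adjusted p = 0.471). Olfr1420 was at 5.15 CPM in WT, 5.82, 6.001 and 5.74 in KO and 8.98, 8.66 and 7.18 in neo, with no overlap and a log2 fold change of 0.50 ± 0.17 (SE; edgeR adjusted p = 0.496). Of the other leading genes of these subclusters, Olfr1427 was at -0.35 and Olfr1419 at -0.31. Olfr1424, with 78 counts in all, was at -0.95 ± 0.43 (SE; edgeR unadjusted p = 0.0567, adjusted p = 0.542). Olfr1442 and Olfr1443 of subcluster 8 were at -0.34 and -0.25. The isolated genes Olfr161, Olfr15 and Olfr19 were at 0.15, 0.23 and 0.34, and of these only Olfr15 had no overlap in CPM between KO and neo (26.6, 29.1 and 24.9 against 32.4, 31.0 and 31.2). Olfr190 (its row with 665 counts) was at -0.43.

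Within the 102 receptors, chromosome 19 took 54.9, 49.4 and 51.9% of the counts of the 102 receptors in KO, 55.2, 54.3 and 53.3% in neo and 52.4% in WT. The KO and neo values overlapped (52.1 ± 2.75 and 54.3 ± 0.981, SD, n = 3). As a share of all receptor counts, chromosome 19 was at 4.57, 4.46 and 4.69% in KO, 4.89, 4.95 and 4.87% in neo and 4.77% in WT. Here the groups did not overlap (4.58 ± 0.117 and 4.90 ± 0.0426, SD, n = 3), and WT lay between them. The chromosome 16 share of all receptor counts did overlap, at 3.75, 4.56 and 4.34% in KO and 3.96, 4.16 and 4.27% in neo. As fold changes, 44 of 54 tested genes of chromosome 19 were positive, with a median log2 of 0.30, and 20 of 35 of chromosome 16, with a median of 0.05. The difference between the chromosomes was not tested.

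The other 2 comparisons use the single WT library and share its values, so each is a difference from that library. By Xist and Ddx3y, WT read as female and every KO library as male. Sex thus cannot be told apart from genotype in KO against WT. Among the neo libraries, only replicate 1 read as female. In KO against WT, 93 receptors were tested and none passed an adjusted p of 0.05 with edgeR (background 0.00523%) or DESeq2. At an unadjusted p under 0.05, 0 were higher (background 0.288%) and 1 was lower (background 0.439%), namely Olfr1491 at -0.73 ± 0.30 (SE; unadjusted p = 0.0369). The median log2 fold change was -0.12, beside a similar -0.10 for receptors elsewhere and 0.008 for all genes. That count was 0 with DESeq2, with only the groups compared, or without KO replicate 3, neo replicate 2 or neo replicate 3, and 3 without KO replicate 1. The next lowest p-value among lower genes was that of Olfr196, at -0.68 (edgeR unadjusted p = 0.0956). The smallest among higher genes were those of Olfr205 at 0.53 and Olfr1497 at 0.46, with unadjusted edgeR p of 0.249 and 0.361.

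In neo against WT none of 93 receptors passed an adjusted p of 0.05 with edgeR (background 0.0105%) or DESeq2. Olfr1420 was higher at an unadjusted p under 0.05 (background 1.24%), with a log2 fold change of 0.69 ± 0.25 (SE; edgeR unadjusted p = 0.0220, adjusted p = 0.9999). Olfr183 and Olfr195 were lower (background 1.72%), at -1.26 ± 0.32 and -0.86 ± 0.37 (SE; unadjusted edgeR p of 0.00348 and 0.0471). Olfr164 was at 0.84 with an unadjusted edgeR p of 0.0601. The median over the receptors was -0.003, with 46 of 93 positive, beside 0.11 over the 930 tested receptors elsewhere, with 559 positive, and 0.006 over all genes. The difference between the 2 sets of receptors was not tested.

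Genes that act with the receptors were taken from fixed lists. These share genes with the mature neuron markers above, among them Omp, Gnal, Adcy3, Ric8b and Rtp1. The counts below thus partly repeat those of the markers. Of 15 genes of odorant signal transduction, 14 had positive fold changes in neo against KO, and Ric8b, a chaperone of the olfactory G protein (log2 0.29), and the exchanger Slc24a4 (0.37) had an unadjusted edgeR p under 0.05. Of 7 genes of receptor transport and feedback, 4 were positive, and Eif2ak3, the kinase of the unfolded protein response used in receptor feedback, was lower at -0.29 (edgeR unadjusted p = 0.0190, adjusted p = 0.498). Of 15 regulators of receptor choice, 10 were positive and Ebf4 was at 0.39 (edgeR unadjusted p = 0.0280, adjusted p = 0.502). Of 6 zone markers 2 were positive, Nqo1 at 0.44 and Acsm4 at 0.48, at unadjusted edgeR p of 0.0217 and 0.0134. Nrp2, Ncam2, Nrp1 and Robo2 were negative, at -0.25, -0.11, -0.08 and -0.07. None of these genes passed an adjusted p of 0.05 (edgeR).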

How the data were processed

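RNA from whole olfactory epithelium was sequenced after poly(A) capture (KAPA RNA Hyperprep), per the labels' protocols, and groups and replicate numbers came from the sample titles. Whole-number read counts and TPM values for each gene were deposited by the authors, made with Trimmomatic 0.35, STAR 2.5.1b and RSEM on GRCm38, per the submitters' processing notes. The authors' deposited comparison of KO with neo gives log2 fold changes, p-values and adjusted p-values from DESeq2 1.18.1, per the same notes. Rows of the count table that name no gene held 35.6 to 41.8% of reads and entered neither library sizes nor tests.

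Counts were tested over all genes with edgeR 4.0.16 (R 4.3.3; TMM, filterByExpr with minimum count 10 and minimum total 15, robust quasi-likelihood fit, two-sided, Benjamini-Hochberg threshold 0.05). The 6 KO and neo libraries entered the first comparison. All 7 entered each comparison with the unreplicated WT library, which was assumed to vary like the rest. CPM values used TMM factors over the 7 libraries. Limma 3.58.1 on log2(TPM + 0.1) and log2(TPM + 1), for genes at a mean TPM of at least 0.5, and DESeq2 1.42.0 were alternatives. The edgeR and DESeq2 code was tested on simulated data. With 3 libraries against 3, an exact permutation test of a share cannot go below 0.1, so shares are given by their values. Models and coding sequences came from GENCODE vM21, which held 100 of the 102 receptors, all with the same coordinates. RefSeq promoter windows were matched by symbol.

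Named receptors were the 2 with the highest mean TPM per subcluster, the 5 with the smallest p in each direction in neo against KO and 2 in each direction against WT, any past the threshold, the 2 most identical pairs, and the highest and lowest CV. The receptors, lists and rules were chosen with earlier results of these data known. The names of the neo libraries carry a number and a code that differ from those of all other libraries. The labels do not explain them, and they cannot be told apart from the neo genotype.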

Additional observations from a re-analysis of the deposited data

How the results depend on the processing

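For neo against KO, edgeR called 3 genes in all and 0 of the receptors. The count over all genes was 40 with no count filter, 101 with DESeq2, 1 with at least 50 counts in 3 libraries, and 6 and 1 with limma on log2(TPM + 0.1) and log2(TPM + 1). It ran from 1 to 17 when a library was left out, with 17 without neo replicate 1 and 1 when neo replicate 3 or either of KO replicates 2 and 3 was dropped. DESeq2 called 1 receptor, Olfr183 (log2 -1.17). At an unadjusted p under 0.05, 21 receptors were found. The count was 13 (11 of them higher) with at least 50 counts in 3 libraries, where 14 of 14 tested genes of subcluster 9 were positive. DESeq2 had 12 higher and no count filter had 4 lower. Lower receptors ran from 2 to 6 without a library, with 6 without KO replicate 1. With the replicate block, edgeR called 1 gene in all and no receptor. Same-numbered KO and neo libraries had correlations of deviations of -0.10, -0.05 and 0.20. Those with different numbers ran from -0.18 to 0.24. So few values cannot decide whether the numbers pair the libraries, and the labels do not say. A gap of 250 kb gave 5 subclusters, with all of chromosome 19 in 1, and 44 of its 54 tested genes positive.

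For KO against WT the 1 call over all genes became 2 with no count filter and 6 with only the groups compared, and 1 to 4 when a library was left out, with 4 without neo replicate 1 and 2 without neo replicate 3. The 1 receptor at an unadjusted p under 0.05 became 0 with DESeq2 and with only the groups compared, and 0 to 3 when a library was left out (0 without KO replicate 3, neo replicate 2 or neo replicate 3, 3 without KO replicate 1). For neo against WT the 2 calls became 7 with no count filter, and 2 to 6 when a library was left out (5 without KO replicate 1, 6 without neo replicate 1). The 3 receptors became 6 with no count filter and 2 to 5 when a library was left out, with 5 without neo replicate 1. The median fold change of -0.003 turned positive in 7 alternatives, at most 0.05 without neo replicate 2.

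Small fold changes of named receptors in neo against KO changed sign. When a library was left out, Olfr161 ran from -0.27 (without neo replicate 1) to 0.39 and was at -0.02 without KO replicate 3. Olfr166 ran from -0.0909 to 0.13 (without KO replicate 2) and was at 0.03 without neo replicate 2 and 0.003 without neo replicate 3. Olfr169 ran from -0.10 (without KO replicate 1) to 0.24, Olfr1443 from -0.53 to 0.0445 (without KO replicate 2) and Olfr1471 from -0.008 (without neo replicate 3) to 0.16. Olfr196 ran from -0.16 to 0.0877 (without neo replicate 2), was at 0.07 without KO replicate 1, and was at 0.0468 and 0.0323 with limma at pseudocounts of 0.1 and 1. The difference in the receptors' share of receptor counts, 0.233 percentage points, ran from -0.0015 (without KO replicate 1) to 0.354. The causes were not tested. No other named receptor reversed. The median receptor had 296 counts over all 7 libraries, which limits the precision of each fold change.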
